A study of Mus musculus with 4 samples.

Results

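The cells described here are the myeloid cells with the highest level of MHC class II transcripts that carried no C1q transcript, in cultures of mouse myeloid-derived suppressor cells (MDSCs) profiled by droplet single-cell RNA sequencing. Of 9525 cell barcodes, 9303 held 200 genes or more with mitochondrial genes giving up to 10% of their UMIs (unique molecular identifiers, 1 per captured RNA molecule), and 8890 of these were eligible, having 0 UMIs of C1qa, C1qb and C1qc and UMIs of fewer than 3 of the 5 migratory dendritic cell genes Ccr7, Ccl22, Fscn1, Il4i1 and Cacnb3. Each eligible cell was scored by the mean over H2-Aa, H2-Ab1, H2-Eb1 and Cd74 of the natural log of 1 plus the UMIs per 10000, and the 5% of cells with the highest score, pooled over all libraries, were taken: 444 cells, with 8446 other eligible cells left for comparison. They are called the class II-scored cells. Since these 4 genes chose the cells, their levels are a description and support nothing.

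All cultures were started from bone marrow of mice aged 6 to 10 weeks and received interleukin-6 and GM-CSF (40 ng/mL each) until day 4, when live CD11b+ cells were sorted and tagged suspensions were pooled for capture. The 4 groups were wild-type (WT) cells with PBS, WT cells with 10 µM isoproterenol (ISO, an agonist of all β-adrenergic receptors), and cells labelled as lacking the β2-adrenergic receptor (β2AR-/-, on a C57BL/6 background) with PBS or with 10 µM ISO. Each group is 1 library, so genotype or treatment and the culture that carried it cannot be told apart, no test was possible and no p-value is given. The 95% intervals are exact and cover counting error only.

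Values of the 4 libraries are given throughout in the order WT+PBS, WT+ISO, β2AR-/-+PBS and β2AR-/-+ISO. The libraries kept 2210, 2264, 2790 and 2039 cells with 24393687, 29400468, 28555811 and 19357824 UMIs. The class II-scored cells numbered 137, 36, 164 and 107 and held 1211619, 392952, 1578763 and 1072191 UMIs, so WT+ISO is the thinnest of the 4 by a wide margin. Their median UMI count per cell was 6255, 7711.5, 8537 and 10000, against 7812, 10100.0, 7582 and 7101 in the other eligible cells, which puts the selected cells below the others in both WT libraries and above them in both β2AR-/- libraries. Levels below are UMIs summed over the named cells of a library in every 1000000 of their UMIs (CPM), and 0 cell barcodes were shared between libraries.

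MHC class II molecules present peptides taken up from outside the cell to CD4+ T cells, and are made at high level by dendritic cells, B cells and activated macrophages. The α and β chains (H2-Aa, H2-Ab1, H2-Eb1) assemble in the endoplasmic reticulum around the invariant chain, the product of Cd74, which proteases such as cathepsin S then degrade so that H2-DM can load a peptide. Transcription of these genes depends on the coactivator CIITA, recruited by factors bound to conserved promoter elements known as the X and Y boxes, and GM-CSF is a cytokine widely used to grow dendritic cells from bone marrow.

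Of 24 class II and pathway genes considered, 20 had a promoter sequence in the table used (RefSeq, build GRCm38.p6), among them 2 of the 4 genes that chose the cells. Shown as examples are the stretches from 120 to 21 bases before the annotated start of 4 of these genes. They are H2-Aa (chr17:34287844-34287943, minus strand), H2-Eb1 (chr17:34305747-34305846, plus strand), H2-DMb1 (chr17:34153071-34153170, plus strand) and H2-DMb2 (chr17:34145129-34145228, plus strand). H2-Aa and H2-Eb1 are genes of the score. H2-DMa and Ctss, which were also higher in the selected cells, are not shown. Capitals mark every match on either strand to ATTGG, the core of a Y box, and to TGATG and TGACG, which resemble the cores of X boxes, with a match on the reverse strand shown as its complement.
H2-Aa: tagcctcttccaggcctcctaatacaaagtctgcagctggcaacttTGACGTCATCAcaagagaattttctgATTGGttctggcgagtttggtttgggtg
H2-Eb1: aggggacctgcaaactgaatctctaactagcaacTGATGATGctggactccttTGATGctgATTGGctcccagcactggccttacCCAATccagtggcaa
H2-DMb1: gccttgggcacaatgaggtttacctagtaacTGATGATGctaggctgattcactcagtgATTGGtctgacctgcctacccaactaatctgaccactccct
H2-DMb2: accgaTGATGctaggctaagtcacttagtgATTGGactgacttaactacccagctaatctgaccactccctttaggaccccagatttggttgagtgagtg

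All 4 windows shown held both ATTGG and TGATG, with a TGATG match upstream of an ATTGG match, but they were chosen for display, and over the 20 genes 5 held both motifs in 1 window and 8 held neither. H2-DMa, Ctss and Ifi30 are among those with neither. ATTGG was present in 19.2% of the 32851 promoter windows of this length, TGATG in 16.3%, TGACG in 9.50%, and ATTGG together with TGATG in 3.06%. The H2-Aa window alone of the 4 held TGACG, on both strands, with the matches overlapping each other and the TGATG match on the reverse strand, and TGATG matches also overlapped each other in H2-Eb1 and H2-DMb1. The window of H2-Ob held both motifs and those of H2-Oa and H2-Eb2 held ATTGG only. Such matches are descriptions of the letters and not measured binding sites.

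The class II score ran from 0, where 4891 eligible cells (55.0%) lay, to 4.53, and the 5% threshold at 0.896 fell on its steep flank. The 3 cells just inside scored 0.8959, 0.8969 and 0.8977 and the 3 just outside 0.8954, 0.8946 and 0.8939. Within 0.1 of the threshold lay 142 selected cells above it and 275 unselected cells below it. Beyond that flank lay a long sparse tail, in which a line at a score of 2 was set after the scores were seen. No gap lay at this line, with 13 cells between 1.8 and 2.2. The part from 2 upwards held 97 of the 444 cells (22, 12, 40 and 23 by library) and is called the upper mode here. The other 347 (115, 24, 124 and 84) are called the lower range. The median score of the selected cells was 1.04, 1.22, 1.15 and 1.14, and 91 of 137, 16 of 36, 89 of 164 and 64 of 107 cells scored under 1.2. Most selected cells thus sat near the threshold in 3 libraries but not in WT+ISO, where 12 of 36 were of the upper mode.

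**Figure D1:**
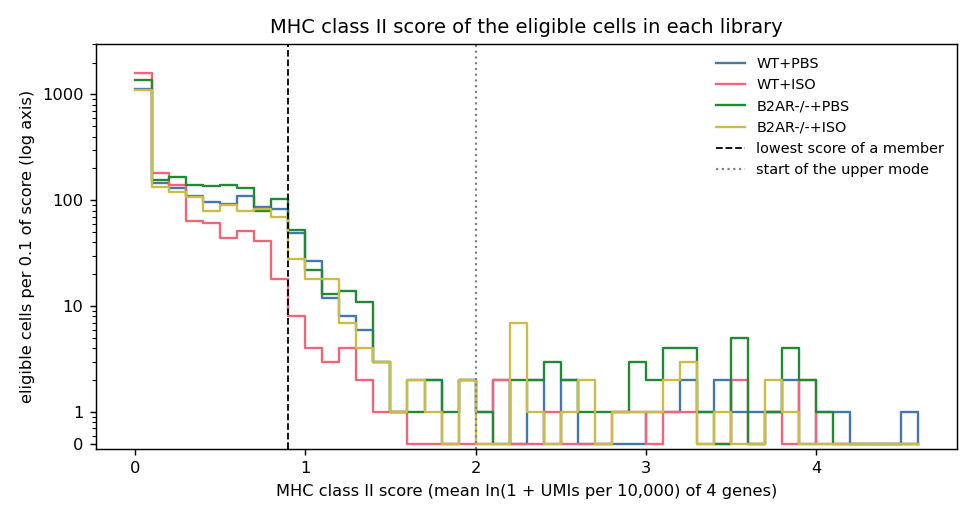
Number of eligible cells (y axis, log scale) per 0.1 of the class II score (x axis, mean natural-log value of H2-Aa, H2-Ab1, H2-Eb1 and Cd74) in each library. The dashed line is the lowest score of a selected cell and the dotted line is the start of the upper mode, set at 2. Most selected cells lie just right of the dashed line except in WT+ISO (16 of 36 under 1.2). A sparse tail runs on across the dotted line without a gap.

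The name "MHC class II high" describes the upper mode and not the lower range, which was chosen almost wholly by Cd74. All 444 cells held Cd74 UMIs, but 98 held no UMI of H2-Aa, H2-Ab1 or H2-Eb1, 198 held 2 of the 4 genes, 38 held 3 and 110 held all 4; of the upper mode, 94 of 97 cells held all 4. The median lower-range cell had 20 Cd74 UMIs and 1 UMI of the 3 H2 chains together, the median upper-mode cell 86 and 45. H2-Aa, the α chain of I-A, stood at 2433, 2076, 2204 and 1622 CPM in the upper mode, at 29.8, 85.6, 53.2 and 75.9 CPM in the lower range and at 2.06, 1.79, 1.64 and 1.21 CPM in the other eligible cells. H2-Aa is a gene of the score, so this order of levels was largely set by the rule.

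The other class II genes divided the same way, as the rule requires. H2-Ab1, its β chain partner, was at 2403, 2120.2, 1775 and 1421 CPM in the upper mode and 168, 175, 172 and 207 CPM in the lower range, and H2-Eb1, the β chain of I-E, at 1582, 1443, 1188 and 919 CPM against 8.84, 38.9, 17.4 and 11.2 CPM. Cd74 was at 8328, 8002, 7938 and 7358 CPM in the upper mode and at 3029, 2474, 3139 and 3319 CPM in the lower range. The 2 ranges thus differ far less in Cd74 than in the H2 chains. Of all kept cells, 48.0%, 28.8%, 49.6% and 43.8% had a Cd74 UMI, while among cells rich in neutrophil granule transcripts (at least 10 UMIs of Ngp, Camp and Ltf; median depths 7926.5, 9428, 6805.5 and 6998 UMIs), which should lack it, 17.4%, 14.98%, 16.2% and 16.01% had one. The median depth of the kept cells was 8088.5, 10252, 8129 and 7484 UMIs. A share of cells up to that size is read as background. The selected cells had a median of 27 Cd74 UMIs, but 5 of them had 1 Cd74 UMI and 16 had 3 or fewer. H2-Aa was found in 2.27%, 2.13%, 1.23% and 1.27% of the granule-rich cells.

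**Figure D2:**
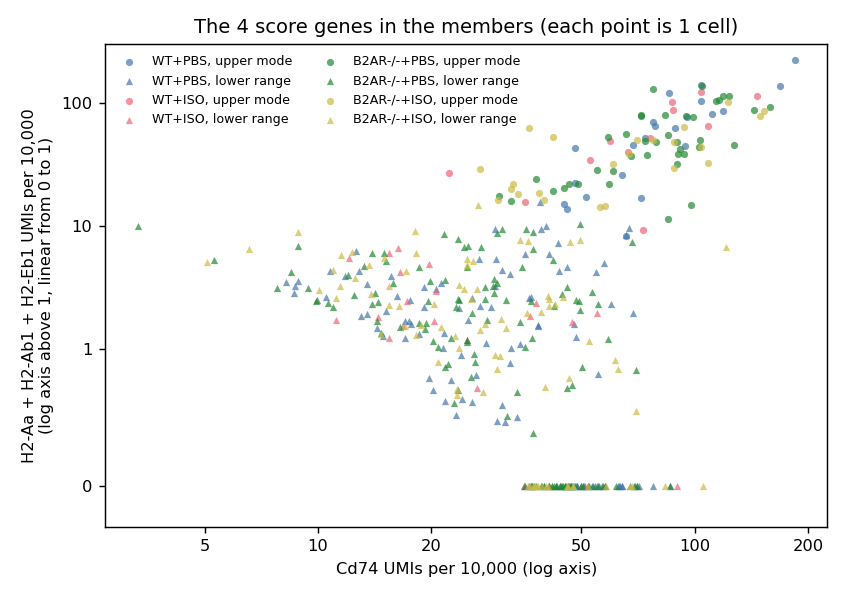
Each selected cell's Cd74 (x axis, UMIs per 10,000, log scale) against its summed H2-Aa, H2-Ab1 and H2-Eb1 (y axis, UMIs per 10,000, linear from 0 to 1 and log above) by library. Upper-mode cells (circles) are high for both, and lower-range cells (triangles) spread along the Cd74 axis with few or no H2 UMIs.

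Part of the presentation pathway genes that the rule did not use were also higher in the selected cells. A gene was counted as higher or lower in the selected cells when its ratio to the other eligible cells was at least 2-fold, that is 1 on the log2 scale, in the same direction in all 4 libraries, among genes with at least 50 UMIs in each. Over all 10041 genes measured, 4.29% were higher by this rule and 1.89% lower, with a median log2 ratio of 0.16. Of 16 measured pathway genes, 7 were higher and 0 lower (Ctss, Ifi30, Lgmn, H2-Oa, H2-DMa, H2-DMb1 and H2-DMb2), with a median of 0.95, and in the upper mode alone 6 of 15 were higher, with a median of 0.71. The cells were chosen on genes of the same pathway, so this share describes them and is not independent of the choice.

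H2-DMa, the α chain of the peptide-loading H2-DM, was at 623, 515, 836 and 658 CPM in the upper mode, 409, 401, 497 and 468 CPM in the lower range and 103, 71.5, 122 and 112 CPM in the other eligible cells. Both selected ranges were above the other cells in every library, with the upper mode highest. The β chain gene H2-DMb1 was at 258, 368, 331 and 472 CPM in the upper mode against 37.6, 62.2, 91.8 and 80.9 CPM in the lower range, and its near-identical copy H2-DMb2 at 378, 169, 221 and 134 CPM against 56.4, 62.2, 53.2 and 54.8 CPM. Reads may be split between these copies, so their individual values are uncertain. Ctss, cathepsin S, was at 796, 1060.1, 934 and 1056 CPM in the upper mode, 597, 416, 711 and 771 CPM in the lower range and 145, 101, 206 and 193 CPM in the other cells. It was above the other cells in both ranges and highest in the upper mode in every library. Ifi30, the lysosomal thiol reductase GILT, ran from 560 to 734 CPM in the upper mode and from 389 to 525 CPM in the lower range, against 136 to 221 CPM in the other cells.

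Ciita, the class II coactivator, was highest in the upper mode in every library. It was at 173, 110, 125 and 55.8 CPM in the upper mode (UMIs in 11, 5, 26 and 10 cells), at 2.21, 19.4, 6.42 and 27.4 CPM in the lower range and at 0, 0.07, 0.2 and 0.17 CPM in the other eligible cells. The gap between the ranges was widest in WT+PBS and narrowest in β2AR-/-+ISO. The WT+PBS value of 0 among the other cells is a count of 0 UMIs. Of 14 MHC class I presentation genes 0 passed the fold in either direction over all selected cells, with a median log2 ratio of 0.66, and 2 were higher in the upper mode alone (Psmb9 and Tap1), with a median of 0.82.

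Costimulatory and dendritic genes were higher in part. Of 7 costimulation and checkpoint genes measured, 4 were higher (Cd86, Cd80, Cd274 and Pdcd1lg2), with a median log2 ratio of 1.39. Cd86, a ligand of CD28 on T cells, was at 805, 582, 444 and 420 CPM in the upper mode, 165, 124, 164 and 167 CPM in the lower range and 49.3, 20.9, 48.9 and 41.0 CPM in the other cells. The upper mode was highest in every library and highest of all in WT+PBS. Cd40, which receives the T cell signal CD40L, was almost absent even from the upper mode (13.04, 0, 14.3 and 3.72 CPM), whereas it reached 48, 35, 43 and 36 CPM in the cells left out for their migratory dendritic genes.

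Of 8 measured genes shared by dendritic cells, 4 were higher (Kmo, Cst3, Runx3 and Itgax), with a median of 1.499. Cst3, the protease inhibitor cystatin C that dendritic cells make in quantity, was at 6691, 4299, 4462 and 3593 CPM in the upper mode, 2540.5, 3232, 2375 and 3192 CPM in the lower range and 714, 544, 816 and 687 CPM in the other cells. Itgax, which encodes CD11c, stood at 117, 125, 164 and 171 CPM in the upper mode and at 138, 77.8, 101 and 138 CPM in the lower range, against 9.25 to 18.7 CPM in the other cells. Itgax thus did not separate the ranges, in contrast to the class II chains. Zbtb46, a transcription factor of conventional dendritic cells, was at 39.1, 7.36, 24.5 and 22.3 CPM in the upper mode and at 18.8, 0, 11.9 and 9.96 CPM in the lower range, and Flt3, the receptor of dendritic progenitors, was at 0, 7.36, 24.5 and 0 CPM in the upper mode, from 1 cell of WT+ISO and 4 cells of β2AR-/-+PBS.

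The defining markers of the dendritic subsets were at or near 0. Over all 444 cells Xcr1 had 1 UMI, Clec9a 0 and Cadm1 2, all of cDC1, and Cd209a, a marker of monocyte-derived dendritic cells, had 4. Of 4 cDC1 genes that could be measured, 1 was higher, the transcription factor Irf8. Of 8 genes of cDC2 and monocyte-derived dendritic cells, 4 were higher (Tnip3, Mgl2, Clec10a and Irf4), with a median of 1.19. Mgl2, a galactose-binding lectin of that lineage and of alternatively activated macrophages, was at 362, 341, 310 and 427 CPM in the selected cells and 45.4, 22.7, 34.3 and 26.4 CPM in the other cells. It was high in all 4 libraries and in both ranges. The dendritic label thus rests on Cst3, Itgax, Kmo, Runx3 and the lectins and, in the upper mode, on Ciita, with Flt3 and the cDC1 markers nearly missing.

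Macrophage and monocyte genes were present beside the dendritic ones. Of 14 macrophage genes measured, 5 were higher and 0 lower, with a median of 1.11, and of 12 monocyte genes 4 were higher and 4 lower, with a median of 0.47. In the upper mode alone 4 of 13 macrophage genes were higher, with a median of 1.41. Of 11 monocyte genes there, 1 was higher (Csf1r) and 4 lower, with a median of -1.03. Adgre1, which encodes F4/80, was at 232, 353, 217 and 320 CPM in the upper mode and 136, 167, 161 and 209 CPM in the lower range, against 42.6 to 69.9 CPM in the other cells. Csf1r, the receptor for M-CSF, was at 170, 287, 215 and 231 CPM in the upper mode and 239, 194, 267 and 245 CPM in the lower range. Both receptors were above the other cells in each library. Apoe, an apolipoprotein of tissue macrophages, was at 0, 22.1, 12.3 and 14.9 CPM in the upper mode against 2.67 to 3.93 CPM in the other cells, from 0, 3, 6 and 4 UMIs. Chil3, a chitinase-like protein of monocytes and immature neutrophils, was at 101, 125, 292 and 104 CPM in the upper mode and at 991, 720, 1009 and 1052 CPM in the lower range, both far under the 6388 to 6771 CPM of the other cells.

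**Figure D3:**
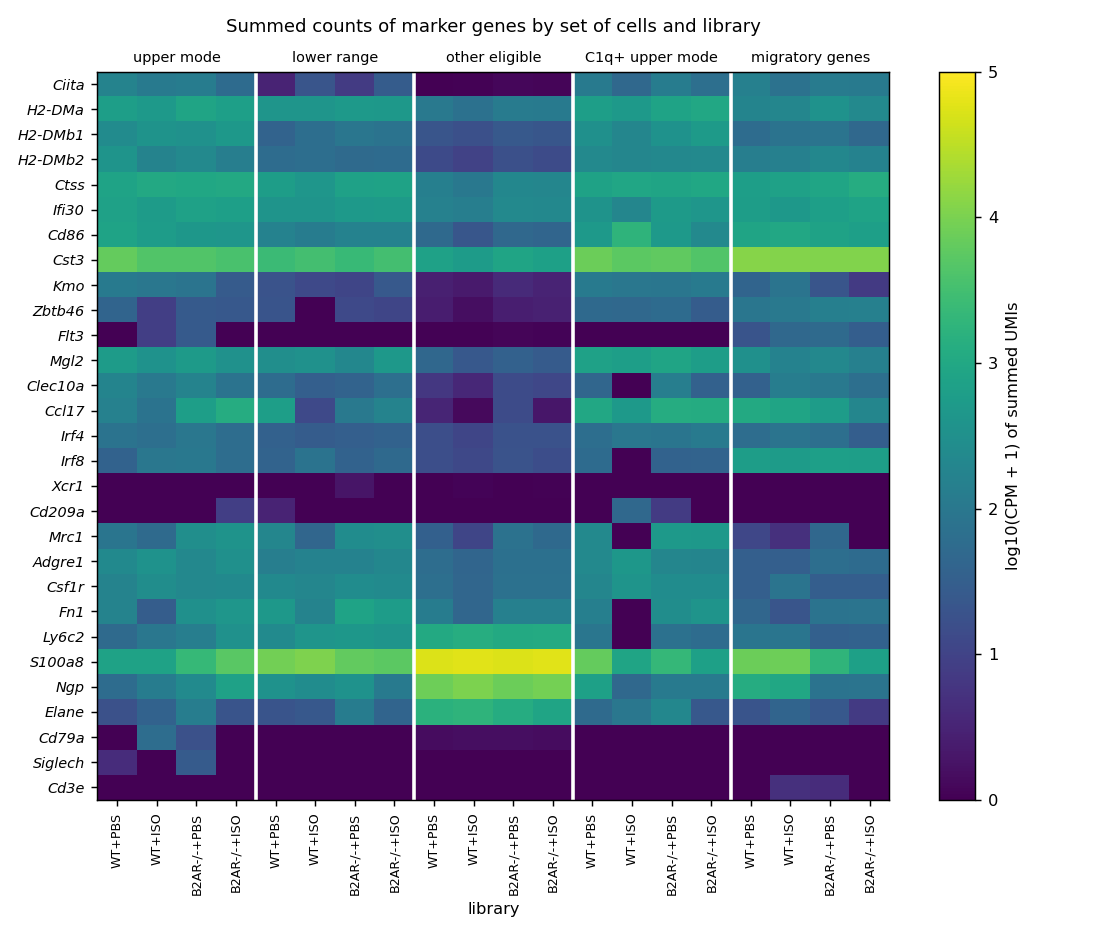
Level of 29 genes (rows; colour, log10 of CPM + 1) in the upper mode, the lower range, the other eligible cells, C1q-positive cells with a score of the upper mode and cells with migratory dendritic genes, each in the 4 libraries (columns). Ciita is higher in the upper mode than in the lower range of each library, and granule genes are strongest in the other eligible cells.

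Transcripts of neutrophil granules marked the cells left unselected. Of 15 neutrophil genes measured, 0 were higher and 9 lower in the selected cells, with a median log2 ratio of -3.003, and of 9 azurophil granule and progenitor genes 7 were lower, with a median of -4.17. Ngp, a granule protein of developing neutrophils, was at 273, 221, 322 and 269.5 CPM in the selected cells against 7793, 10368, 7543 and 9173 CPM in the others. Camp, the cathelicidin precursor, was at 75.1, 40.7, 51.3 and 142 CPM against 2128, 2929, 2138 and 2998 CPM, and Ltf, lactoferrin, at 108, 35.6, 50.7 and 132 CPM against 1387, 1915, 1386 and 1755 CPM. The other genes among the 10 most depleted were Itgb2l, Cldn15, Ctsg, Chil1, Ms4a3, Cd177 and Lipg.

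Granule transcripts were not evenly spread over the selected cells. The whole neutrophil list summed to 2573, 3202, 7077 and 13135 CPM in the upper mode, 20216, 24491, 16897 and 14439 CPM in the lower range and 142360, 158498, 141423 and 157286 CPM in the other cells. In the upper mode it was lowest in WT+PBS and highest in β2AR-/-+ISO, and its most abundant genes were S100a8 and S100a9, the calprotectin subunits, at 766, 758, 2266 and 5189 CPM and 1021, 1178, 2981 and 5401 CPM. The neutrophil list and the azurophil granule and progenitor list together made up more than 1% of UMIs in 194 of the 444 cells. Of these, 9 were in the upper mode and 185 in the lower range. Granule UMIs below means the UMIs of both lists, which also hold genes that do not encode granule proteins. The part of free RNA and of mixed droplets in these values was not tested. A doublet caller marked 17 of the 9303 cells (0.183%), 1 of them a class II-scored cell, against an expected rate of 6%. Why so few were called was not tested. The count is not read as a low share of doublets, and doublets were left in.

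Markers of lymphocytes gave few UMIs. B cell genes gave 22, 21, 82 and 11 UMIs in the selected cells (18.2, 53.4, 51.9 and 10.3 CPM), against 21.7, 25.8, 19.1 and 18.2 CPM in the other cells. In the upper mode they were at 45.7, 140, 139 and 14.9 CPM, from 14, 19, 68 and 4 UMIs. Cd79a, part of the B cell receptor, had 16 UMIs, all from 2 upper-mode cells, 1 of WT+ISO and 1 of β2AR-/-+PBS. Of 2 B cell genes measured 0 passed the fold, of 4 plasmacytoid dendritic cell genes 0, and the 1 measured gene of T and NK cells, Nkg7, was lower. Siglech, a plasmacytoid marker, had 14 UMIs from 2 cells, and Cd3e of the T cell receptor had 0.

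The genes with the largest ratios to the other eligible cells in the weakest of the 4 libraries were Plet1, Asgr2, Cxcl16, Dcstamp, Tnfrsf9, Kmo, Ly6a, Apbb2, Aif1, Ly86, Aff3, Lepr, Rnf150, Mgl2 and Dst. Plet1, a surface protein found on some epithelial and dendritic cells, was at 279, 326, 134 and 182 CPM against 3.30 to 4.82 CPM, a log2 ratio of 5.08 to 6.16. Asgr2, a subunit of the asialoglycoprotein receptor, was at 239, 191, 207 and 215 CPM, a ratio of 4.34 to 7.499. Both were far above the other cells in all 4 libraries, with the widest range of ratios for Asgr2. Dcstamp, a transmembrane protein of dendritic cells needed for fusion of osteoclasts, was at 87.5, 94.2, 75.4 and 118 CPM (3.72 to 4.81), and Tnfrsf9, the costimulatory receptor 4-1BB, at 124, 81.4, 153 and 127 CPM (3.57 to 5.22). Cxcl16, a transmembrane chemokine, was at 29.7, 78.9, 84.2 and 84.9 CPM (3.73 to 5.96), lowest in WT+PBS.

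Ly6a, which encodes the surface antigen Sca-1, was at 204, 631, 252 and 440 CPM in the selected cells, against 12.4, 30.6, 23.8 and 35.3 CPM in the others. Both ISO libraries were above both PBS libraries in the selected cells and in the others alike. Plet1 was at 861, 272, 356 and 253 CPM in the upper mode alone, a ratio to the other cells of 5.82 to 7.79. That was above its level over all selected cells except in WT+ISO, where it was 272 against 326 CPM. In the upper mode, where 3.74% of 9960 measured genes were higher by the same rule and 1.45% lower, Slc8a1, a sodium and calcium exchanger, also stood out at 597, 1178, 511 and 491 CPM.

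Cell cycle genes were lower in the selected cells in part. Of 15 S phase genes 3 were lower and 0 higher, with a median of -1.05, and of 15 G2/M genes 2 were lower, with a median of -1.22. Of 9 inflammatory cytokines and sensors 2 were higher (Il1b and Il18), of 15 cytokine receptor and STAT genes 4 (Socs3, Csf2rb2, Csf2rb and Csf1r), of 7 interferon-response genes 0, and of 8 alternative activation genes 5 were higher and 1 lower. Csf2rb and Csf2rb2 encode β subunits of receptors of the GM-CSF family.

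The C1q-positive cells, 68, 21, 192 and 64 of the kept cells, were kept apart by the rule, and 23, 1, 49 and 20 of them had a score of the upper mode. Genes the rule did not use were set side by side in these cells and in the C1q-negative upper mode, without a test. Ciita was at 111, 48, 126 and 66 CPM in the C1q-positive cells, H2-DMa at 647, 482, 806 and 975 CPM and Cst3 at 7666, 5588, 5908 and 4473 CPM, each within or near the range of the C1q-negative upper mode. The WT+ISO values of the C1q-positive cells come from 1 cell. Ccl17, a chemokine for CCR4 on T cells, was at 979, 482, 1228 and 1191 CPM with C1q and at 153, 81.0, 629.8 and 1249.9 CPM without it.

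The cells with migratory dendritic genes numbered 26, 15, 27 and 14. They had more Cst3 (12546, 11856, 11189 and 11249 CPM), Zbtb46 (91, 106, 146 and 151 CPM) and Cd274, the ligand PD-L1 (297, 405, 414 and 590.1 CPM), than the upper mode, where Cd274 was at 108, 95.7, 117 and 78.1 CPM. Irf8 was also higher in the migratory cells, at 607, 555, 662 and 626 CPM, against 35.9, 95.7, 98.1 and 59.5 CPM in the upper mode. H2-DMa went the other way, at 176, 201, 358 and 223 CPM in the migratory cells. These 5 genes were named after their values were seen, and the share of all genes that differ as clearly was not computed.

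Clustering of the 444 cells without the 12 genes of the rule gave 6 groups, of which 2 held 90.7% of the upper mode. That share depended on the settings, at 97.9% with 3 groups (resolution 0.3), 62.9% with 8 (resolution 1.0) and 77.3% with 5 (2000 variable genes). The clustering used every other gene, so the leading genes are a description. A group of 148 cells, 54 of them of the upper mode, was led by Ccl17, Ptx3, Timp1, March3, Nrg1, Pf4, Mrc1, Dcstamp, Mmp12 and Plxdc2. Ccl17 was at 726 CPM there and at 24.3 CPM in the remaining selected cells. Mrc1, the mannose receptor of macrophages and cultured dendritic cells, was at 375 against 107 CPM. A group of 46 cells, 34 of them of the upper mode, was led by Cd7, Klrd1, Ctnnd2, Dscam, Adam23, Serpina3g, Rtn1, Ppp1r14a, Hpgds and Il2ra and had a median score of 3.22.

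The group of 46 was high in Ciita and in part of the dendritic genes. Ciita was at 158 CPM there and at 22.1 CPM in the remaining selected cells, Kmo, an enzyme of tryptophan breakdown, at 124 against 18.0 CPM, and Cst3 at 8855 against 2333 CPM. Of the Flt3 UMIs 12 lay in this group and 1 outside it, and all 4 Cd209a and all 14 Siglech UMIs lay in it. Its Mrc1 was low, at 29.9 CPM, as was its Ccl17, at 66.2 CPM. The 2 groups thus differed in Mrc1 and Ccl17, high in the larger, and in Ciita and Kmo, high in the smaller.

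The remaining groups were nearly all of the lower range. A group of 105 cells was led by Mmp9, Pglyrp1, Mirt2, Cxcr2, Acta2, Dach1 and Chil3 and held 1 upper-mode cell, and a group of 75 was led by Csf3r, Olr1, Acta2 and Ccl3 at a median of 1767 UMIs per cell, 0.218 of the median of the cells' own libraries, with 1 upper-mode cell. Many of these leading genes belong to neutrophils. A group of 40 cells was led by the stefin gene Cstdc5 with Elane, Ltf and Stfa2l1, and a group of 30 (3, 0, 20 and 7 cells in the 4 libraries) had Cacna1d, Slc7a2, Mertk, F13a1 and Nos2 among its leading genes. None of the groups was given a cell type name.

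With ISO the class II-scored cells took up a smaller share of the WT library. They were 137 of 2122 eligible cells with PBS (6.46%, interval 5.45% to 7.59%) and 36 of 2229 with ISO (1.62%, 1.13% to 2.23%), which is an ISO to PBS log2 ratio of -2.00 (-2.57 to -1.46). In the β2AR-/- libraries they were 164 of 2577 (6.36%, 5.45% to 7.38%) and 107 of 1962 (5.45%, 4.49% to 6.55%), a log2 ratio of -0.22 (-0.59 to 0.14). WT+ISO was thus low and the other 3 libraries overlapped in their intervals. Whether the ratios of the genotypes differ was not tested, since each rests on 1 library per arm.

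At the depth as sequenced the lower WT share came mostly from the lower range, where the share was 5.42%, 1.08%, 4.81% and 4.28% and the log2 ratios -2.33 (-3.03 to -1.69) in WT and -0.17 (-0.59 to 0.24) in β2AR-/-. The upper mode was 1.04% (0.651% to 1.57%), 0.538% (0.278% to 0.939%), 1.55% (1.11% to 2.11%) and 1.17% (0.745% to 1.75%) of eligible cells. Its log2 ratios were -0.95 (-2.09 to 0.13) in WT and -0.40 (-1.21 to 0.37) in β2AR-/-, and both intervals of counting error reach across 0. With every cell thinned to 2000 UMIs they were -1.61 (-2.65 to -0.66) and -0.84 (-1.59 to -0.13), so that both intervals then lay below 0. Thinning also changed which cells were eligible and which fell in the upper mode, so this move is not one of depth alone. With the C1q-positive cells of the same score counted in, the upper mode was 2.04%, 0.574%, 3.19% and 2.11% of kept cells, with log2 ratios of -1.83 (-2.84 to -0.91) in WT and -0.60 (-1.16 to -0.06) in β2AR-/-.

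**Figure D4:**
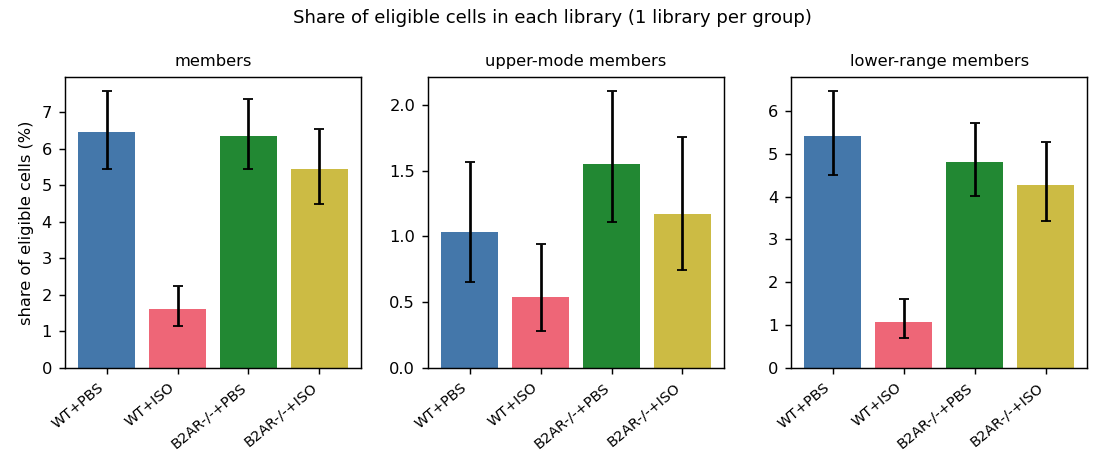
Share of eligible cells (y axis, percent) that were class II-scored, in the upper mode and in the lower range, in each library (1 library per group); bars start at 0 and error bars are exact 95% intervals of counting error. The share in WT+ISO, 1.62% for all class II-scored cells, lies below the 5.45% to 6.46% of the other libraries, and at this depth, as sequenced, the upper-mode intervals of WT+PBS and WT+ISO overlap.

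Depth and the weight of Cd74 moved with this result. With every cell thinned to 2000 UMIs, which leaves out 179, 127, 214 and 183 eligible cells, the shares were 6.32%, 1.89%, 7.14% and 4.28%. The log2 ratios were -1.74 in WT and -0.74 (-1.15 to -0.34) in β2AR-/-, so that the β2AR-/- ratio then lay clear of 0. Eligibility was judged again on the thinned counts, which gave 1979, 2122, 2436 and 1800 eligible cells. Some of these were not eligible as sequenced, so depth and the set of cells changed together. The upper mode was then 1.87% (1.32% to 2.57%), 0.613% (0.327% to 1.05%), 2.38% (1.81% to 3.07%) and 1.33% (0.856% to 1.98%), from 37, 13, 58 and 24 cells, of which 19, 9, 36 and 19 were class II-scored before thinning. With the score taken without Cd74 the WT ratio was -0.88 (-1.36 to -0.41). Cd74 was lower in WT+ISO outside the selected cells as well, at 226, 85.9, 251 and 221 CPM in the other eligible cells and 721, 238, 843 and 665 CPM in all kept cells. It was also lowest in WT+ISO among the granule-rich cells (45.9, 20.97, 60.8 and 44.2 CPM).

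Within the upper mode the class II transcripts that chose the cells had ISO to PBS log2 ratios below 0, in a range that the choice itself bounds. The 4 genes summed to -0.11 (-0.19 to -0.03) in WT and -0.21 (-0.27 to -0.15) in β2AR-/-, and nothing is read from these values. The other class II pathway genes, which the rule did not use, summed to -0.05 and 0.01.

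Between ISO and PBS in the WT class II-scored cells, 1.19% of 4717 measured genes were at least 2-fold higher with ISO and 2.82% at least 2-fold lower, on the counts of 36 and 137 cells. This balance turned with 5% of the cells taken from each library, where 100 genes were higher and 83 lower, against 56 and 133. The largest lower ratio was that of Ccl17, at 35.6 CPM with ISO (14 UMIs in 3 cells) and 512 CPM with PBS (620 UMIs in 17 cells), a log2 ratio of -3.84 (-4.72 to -3.09). Few cells carried it, since 1 cell gave 71.4% of its UMIs with ISO and 32.4% with PBS. In β2AR-/- it went the other way, with a ratio of 0.74. Among the 12 were 3 stefin genes, which encode inhibitors of cysteine proteases: Cstdc4 was at 809 and 3973 CPM (-2.30, -2.46 to -2.13), Stfa2l1 at 63.6 and 514 CPM (-3.01) and Cstdc5 at 10.2 and 105 CPM (-3.36), and they are near-identical copies between which reads may be split. The same 3 genes were lower with ISO in the other eligible WT cells, by ratios of -0.92, -1.004 and -0.97. The group of 40 cells led by Cstdc5 held 11 WT+PBS and 1 WT+ISO cells, and its part in these ratios was not tested. Car4, a carbonic anhydrase, was at 137 and 714 CPM (-2.38, -2.80 to -1.98), against -0.60 in the other cells. The remaining large decreases were in Adam23, Gal, E230016K23Rik, Maml2, Gm40645, Wwox and Errfi1, with ratios from -3.48 to -1.94. The largest of these, that of Adam23, turned to 0.37 when cells were thinned to 2000 UMIs.

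Among the WT genes higher with ISO, Ly6a had one of the firmest counts, with 631 and 204 CPM (248 and 247 UMIs in 18 and 35 cells; 1.63, 1.37 to 1.89). Its ratio was 1.301 in the other eligible WT cells and 0.81 in the β2AR-/- class II-scored cells. Procr, the endothelial protein C receptor, was at 132 and 19.8 CPM (2.74, 2.02 to 3.50), Tnfaip2 at 272 and 101 CPM (1.44, 1.05 to 1.82), and Vcan, the matrix proteoglycan versican, at 468 and 170.0 CPM (1.46, 1.17 to 1.76). In the other eligible cells Procr stood at 0.68 and Tnfaip2 at -0.08. Ahrr, the repressor of the aryl hydrocarbon receptor, was at 112 and 24.8 CPM (2.18, 1.47 to 2.90), beside 1.29 in the other cells. Pf4, platelet factor 4, had the largest ratio, 4.05 (3.21 to 4.98), at 191 and 11.6 CPM in 8 and 11 cells, with 52.0% of its ISO UMIs from 1 cell. Fabp5 and Nrg1 (1.63 and 1.51) also leaned on 1 cell, which gave 59.6% and 43.4% of their UMIs with ISO. Tspan18, Tent5a, Rcbtb2 and Nolc1 made up the 12.

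In the β2AR-/- class II-scored cells 0.373% of 6163 measured genes were at least 2-fold higher with ISO and 1.02% lower, on 107 and 164 cells. The arms held more cells and UMIs than in WT, so these percentages are not compared with those of WT. The lower genes were led by Rabgap1l, which regulates vesicle traffic, at 14.9 and 75.4 CPM (-2.34, -3.19 to -1.58; 43.7% of the PBS UMIs from 1 cell), and Pltp, the phospholipid transfer protein (-2.22). Elane and Prtn3, neutrophil proteases of azurophil granules, followed at -1.87 and -1.63, but 1 cell gave 56.8% and 50.6% of their PBS UMIs. Without cells over 1% granule UMIs Elane and Prtn3 turned to 0.81 and 0.91, and Elane turned to 0.59 when cells were thinned to 2000 UMIs. The others were Fhod1, Pex16, Ctdspl, Orc6, Nr4a2, Disc1, Sla and Bub1b.

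Higher with ISO in β2AR-/- were Pdgfrl, a receptor-like protein, at 42.9 and 10.1 CPM (2.08, 1.23 to 3.002), Pf4 at 73.7 and 28.5 CPM (1.37, 0.82 to 1.93), Inhba, the activin A subunit, at 108 and 43.1 CPM (1.33, 0.88 to 1.78), and Ptx3, a soluble pattern receptor, at 42.0 and 15.8 CPM (1.41, 0.67 to 2.17). Pf4 was thus higher with ISO in both genotypes under the rule used, but with the score taken without Cd74 its β2AR-/- ratio turned to -0.70. Pf4 and Ptx3 are leading genes of the group of 148 cells, which held 27.0%, 38.9%, 29.3% and 45.8% of the selected cells of the 4 libraries. The part of this group in these ratios was not tested. The granule genes Camp (1.47) and Ltf (1.39) owed 55.9% and 59.2% of their ISO UMIs to 1 cell. Pknox2, Ift22, Stfa1, Whamm, Zpr1 and Tasor2 completed the 12, with ratios from 1.62 to 1.14. Stfa1 turned to -0.24 when cells were thinned to 2000 UMIs and to -0.16 with the score scaled to unit SD. Camp turned to -0.11 with the highest 3% of cells, to -0.0462 thinned and to -0.00763 without cells over 1% granule UMIs.

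In the upper mode alone 12 WT+ISO cells stood against 22 WT+PBS cells, and 4.26% of 1501 measured genes were higher and 5.86% lower by 2-fold. Adam23, a surface protein of the metalloprotease family, was at 22.1 and 326 CPM (-3.88, -6.19 to -2.30) in WT and had 1 against 133 UMIs in β2AR-/- (-6.19, -11.51 to -3.69). Dscam, a cell adhesion molecule, had 0 against 85 UMIs in WT (277 CPM with PBS), which at a floor of 3 UMIs over the ISO cells is a log2 ratio of -3.65 or lower. Aff3, a nuclear protein of lymphoid cells, was at 73.6 and 417 CPM (-2.50) in WT and 29.8 and 135 CPM (-2.18) in β2AR-/-. Adam23 and Aff3 were thus lower with ISO in both genotypes. Adam23, Dscam, Klrd1 (-2.61) and Cd7 (-2.26), all lower in WT, are leading genes of the group of 46 cells described above. That group held 14, 7, 18 and 7 cells by library, which is 10.2%, 19.4%, 11.0% and 6.54% of the class II-scored cells. The part of this group in these ratios was not tested.

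The upper-mode genes higher with ISO in WT included Lyz2, lysozyme M, at 3063 and 672 CPM (2.19, 1.94 to 2.44), Ly6a at 1413 and 222 CPM in 10 and 11 cells (2.67, 2.27 to 3.09), Vcan at 604 and 84.8 CPM (2.83), Tnfaip2 at 331 and 62.0 CPM (2.42) and Msr1, a scavenger receptor (2.38). Blvrb, biliverdin reductase B, was at 442 and 97.8 CPM (2.17). Saa3 had the largest ratio, 4.90, with 96.2% of the ISO UMIs from 1 cell. In β2AR-/-, where 1.40% of 2495 genes were higher and 3.29% lower, Slpi, an inhibitor of neutrophil proteases, had the largest higher ratio (1.91), beside 2.56 in WT.

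G2/M genes were lower with ISO in the upper mode of both genotypes. Of the measured G2/M genes 4 of 5 were at least 2-fold lower in WT and 5 of 7 in β2AR-/-, and the list summed to log2 ratios of -1.41 and -1.67, against 0.12 and -0.07 in the other eligible cells. Top2a, topoisomerase II of dividing cells, was at 264, 22.1, 209 and 37.2 CPM, and Mki67, the antigen Ki-67, at 176, 44.2, 112 and 22.3 CPM. Both ISO libraries were below both PBS libraries. The UMIs of Top2a came from 7 and 2 cells in WT+PBS and WT+ISO and from 11 and 4 in β2AR-/-+PBS and β2AR-/-+ISO, so few cells set these levels. S phase genes summed to -0.76 and -0.74, although 0 of them could be measured singly in WT and 1 in β2AR-/-, at 0.11. Over all class II-scored cells the G2/M ratio was 0.03 in WT and -0.44 in β2AR-/-, and in the WT lower range it was 0.76, which is the opposite direction.

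The summed level of Nrf2 antioxidant and iron storage genes was higher with ISO in both genotypes and most in the upper mode, mainly through ferritin. The list gave log2 ratios of 0.55 (0.53 to 0.58) in WT and 0.45 (0.43 to 0.47) in β2AR-/- over all class II-scored cells, 1.40 (1.36 to 1.45) and 0.78 in the upper mode, and 0.23 and 0.16 in the other eligible cells. Fth1, ferritin heavy chain, was at 24370, 35857, 20168 and 29318 CPM in the class II-scored cells, and at 15434, 44363, 18071 and 32940 CPM in the upper mode. In both the ISO library was above the PBS library of its genotype. Past the 2-fold line were 2 of 7 genes in WT, Hmox1 and Gclm, and 0 of 8 in β2AR-/-.

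Hmox1, heme oxygenase 1, was at 103, 247, 155 and 202 CPM (log2 ratios 1.26 and 0.39), beside 0.96 and 0.71 in the other eligible cells. Gclm, a subunit of the enzyme that starts glutathione synthesis, was at 144, 349, 151 and 184 CPM (1.27 and 0.29), beside 0.92 and 0.34. Both were highest in WT+ISO. In the upper mode 4 of 6 genes passed the fold in WT (Slc7a11, Gclm, Ftl1 and Fth1) and 1 of 7 in β2AR-/- (Slc7a11, the cystine importer).

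Lists of cell type genes were compared in the same way over all class II-scored cells. The median log2 ratio over all genes measured was 0.02 in WT and -0.03 in β2AR-/-. The cDC2 and monocyte-derived dendritic list was at -0.80 in WT and 0.21 in β2AR-/-, the shared dendritic list at -0.01 and 0.09, the macrophage list at -0.19 and -0.02, the monocyte list at -0.20 and -0.08 and the neutrophil list at 0.12 and 0.03. Of these the cDC2 and monocyte-derived list was the farthest from 0, with 3 of 9 genes at least 2-fold lower in WT (Clec4a2, Ccl17 and Cd7) and 0 of 8 past the fold in β2AR-/-. Much of this rested on Ccl17, without which the list was at -0.31 in WT and 0.06 in β2AR-/-. These are ratios of summed CPM, and the median over a list's genes had the opposite sign for the cDC2 and monocyte-derived list in β2AR-/- (-0.07), the neutrophil list in WT (-0.31) and, by small sizes, the shared dendritic list (-0.03) and the macrophage list (0.02) in β2AR-/-. With equal weight per cell the neutrophil list was at 0.67 in WT, and the shared dendritic list at -0.17 in WT and -0.0770 in β2AR-/-. In the upper mode the macrophage list was at 1.44 in WT and 0.42 in β2AR-/-, but Lyz2 was the 1 gene of 4 measured that passed the fold in WT, and without it the list was at 0.44 and 0.36. The other upper-mode values were 0.69 and 0.42 for the monocyte list, -0.70 and -0.31 for the shared dendritic list and 0.32 and 0.89 for the neutrophil list, whose part in the other values was not tested. In the lower range the directions of 3 of these lists were opposite in both genotypes, with -0.52 and -0.17 for macrophage, -0.25 and -0.24 for monocyte and 0.36 and 0.37 for shared dendritic genes.

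The cDC1 list was at -0.40 in WT and -0.08 in β2AR-/- over all class II-scored cells, and the azurophil list at -0.23 and -0.20, where 4 of its 6 measured genes were at least 2-fold lower in β2AR-/-, among them Elane and Prtn3. The median over azurophil genes was 0.44 in WT, opposite to the sum, and without cells over 1% granule UMIs Elane and Prtn3 turned to 0.81 and 0.91 in β2AR-/-. Lists of cells other than the selected kind gave the largest ratios on few UMIs. The B cell list was at 1.56 (0.62 to 2.49) in WT, from 21 UMIs with ISO and 22 with PBS, and at -2.34 (-3.40 to -1.43) in β2AR-/-, from 11 and 82. The eosinophil, basophil and mast cell list was at 0.17 (-1.94 to 1.92) in WT, from 4 and 11 UMIs, and at -1.95 (-3.09 to -0.97) in β2AR-/-, from 10 and 57. In the other eligible cells this list was at -3.18 and -3.87, lower with ISO in both genotypes.

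Of the remaining lists, the cAMP response, which β-adrenergic receptors are known to drive, was at -0.38 in WT and -0.07 in β2AR-/- over all class II-scored cells, beside -0.31 and 0.03 in the other eligible cells. In the lower range the cAMP list was at -0.62 and -0.15. In the upper mode it had the opposite direction, at 0.18 (-0.02 to 0.38) and 0.11 (-0.06 to 0.27), with intervals that reach across 0. Costimulation stood at -0.07 and 0.03, chemokines at -0.14 and 0.14, MHC class I at 0.18 and 0.12, the interferon response at 0.65 and 0.09, inflammatory cytokines at -0.03 and 0.18, immunosuppressive effectors at -0.31 and 0.10, cytokine receptors at 0.23 and 0.00, and alternative activation at -0.84 and 0.23, or -0.48 and 0.13 without Ccl17. The median over genes turned the sign in WT for costimulation (0.06), chemokines (0.27) and inflammatory cytokines (0.07), and in β2AR-/- for the interferon response (-0.03). In the upper mode the sum had the opposite sign in WT for chemokines (0.80), inflammatory cytokines (0.93) and MHC class I (-0.08). In β2AR-/- this held for costimulation (-0.09), the interferon response (-0.26) and cytokine receptors (-0.03).

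**Figure D5:**
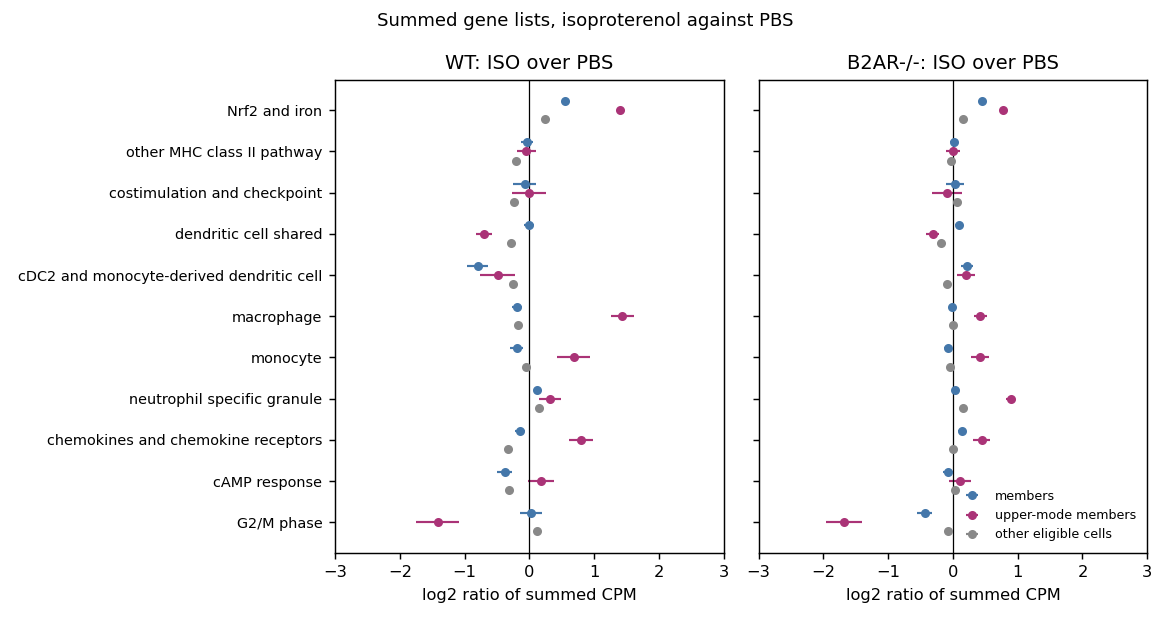
Log2 ratio of ISO over PBS (x axis) of the summed CPM of 11 gene lists (rows) in WT and in B2AR-/- (the β2AR-/- libraries), for all class II-scored cells, the upper mode and the other eligible cells; lines are exact 95% intervals of counting error. In the upper mode the Nrf2 and iron list lies right of 0 and the G2/M list left of 0 in both genotypes, while the cDC2 and monocyte-derived list over all class II-scored cells lies left of 0 in WT and right of it in B2AR-/-.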

How the data were processed

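The authors deposited, per sample, a matrix of UMI counts per gene and cell barcode, made with Cell Ranger (7.0.0 in the file headers, 6.0.0 in the submitters' notes, which also name Seurat and build mm10), with 32285 genes and 12 multiplexing tags. Groups came from the titles, since the treatment field names ISO for all 4 samples. The class II-scored cells and the 29 gene lists were chosen with earlier results of these data known. Deposited counts were used as they are. Counts were summed over cells and scaled to CPM; shares have Clopper-Pearson and ratios exact conditional binomial 95% intervals, for counting error only. UMI counts of the class II-scored cells, 392952 to 1578763 per library, limit precision. A gene was measured with at least 50 UMIs and past the fold at a log2 ratio of 1; a count of 0 was set to 3 UMIs in ratios where that gives a bound, and gave no ratio otherwise. Named genes were the rule's 12 genes; list members with the most UMIs or past the fold, and defining markers near 0; the 15 highest and 10 lowest against other eligible cells; and the 12 largest ratios per direction with ISO, among genes in at least 10% of the cells where higher. Results on some genes are not reported here. Other genes named with a group or a list were chosen after their values were seen. The groups came from Leiden clustering (1000 variable genes, 15 principal components, 15 neighbours, resolution 0.5). Python 3.11.15, numpy 2.4.6, scipy 1.17.1, pandas 2.3.3, scanpy 1.11.5, leidenalg 0.10.2 and matplotlib 3.10.9 were used, and the scripts were tested on simulated data. Alternatives covered the threshold, score, cell filters, depth, normalization, UMI minimum and fold.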

Additional observations from a re-analysis of the deposited data

Results flagged for a closer look

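For 5 gene lists and 8 genes the log2 ratio of ISO over PBS in the class II-scored cells had opposite directions in WT and β2AR-/-, with both counting intervals clear of 0. The cDC2 and monocyte-derived dendritic list was at -0.80 in WT and 0.21 in β2AR-/- by its summed CPM, while the median over its genes in β2AR-/- was -0.07. Without Ccl17 this list was at -0.31 and 0.06. Alternative activation genes were at -0.84 and 0.23, or -0.48 and 0.13 without Ccl17, and chemokines and their receptors at -0.14 and 0.14. For the chemokine list the median over genes was 0.27 and 0.10, and in the upper mode alone the list was at 0.80 and 0.45. S phase genes were at 0.43 and -0.69, but at -0.76 and -0.74 in the upper mode alone. B cell genes were at 1.56 and -2.34, from 22, 21, 82 and 11 UMIs in the 4 libraries. Ccl17, a chemokine of the dendritic list, was at -3.84 and 0.74, and Ptx3, a soluble pattern receptor that leads the same group of cells, at -1.52 and 1.41. Inhba, the activin A subunit, was at -1.10 and 1.33, and the stefin gene Cstdc5 at -3.36 and 0.32. Granule genes split in both directions, with Ltf at -1.60 and 1.39, Camp at -0.88 and 1.47, and Prtn3 at 1.22 and -1.63. In β2AR-/- 1 cell gave 55.9% of the Camp and 59.2% of the Ltf UMIs with ISO and 50.6% of the Prtn3 UMIs with PBS, and without cells over 1% granule UMIs Camp was at -0.00763 and Prtn3, then in the direction of WT, at 0.91. Fabp5, a fatty acid-binding protein, was at 1.63 and -1.04. In each case the difference between the genotypes was not tested, since each arm is 1 library.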

How the results depend on the processing

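The log2 ratio of the WT share of class II-scored cells, ISO over PBS, ran from -2.12 to -0.75 over the settings run, weakest when only cells holding all 4 class II genes were kept (-0.75, interval -1.78 to 0.24), with the score taken without Cd74 (-0.88), in the upper mode alone (-0.95, -2.09 to 0.13) and with the score scaled to unit SD (-1.33). Thinning to 2000 UMIs, which also changed which cells were eligible, moved the β2AR-/- ratio to -0.74 and the β2AR-/-+ISO share to 4.28%. Shares were 3.49%, 1.03%, 3.84% and 3.57% for the highest 3%, 13.01%, 3.41%, 12.1% and 11.4% for the highest 10%, 2.97%, 0.852%, 4.07% and 3.21% without cells over 1% granule UMIs, and 4.95% in WT+PBS and 2.69% in WT+ISO without Cd74. Genes past the fold with ISO, higher and lower, were 154 and 291 in WT and 101 and 143 in β2AR-/- with equal weight per cell, 263 and 387 and 114 and 243 at a minimum of 20 UMIs, 8 and 23 and 2 and 4 at 200 UMIs, 9 and 42 and 2 and 13 at a log2 fold of 1.5, and 14 and 47 and 13 and 25 after thinning. WT counts were 100 and 83 with 5% of each library, which turned the balance, 88 lower in the upper mode, 85 higher in the lower range and 62 lower with all 4 genes; β2AR-/- counts were 41 lower at 3%, 34 lower in the lower range, and 12, 15 and 35 higher with unit SD, without Cd74 and in the upper mode. Against the other eligible cells, thinning left 111 genes higher and 87 lower, and the score without Cd74 92 lower. Median-of-ratios scaling gave WT list ratios of -0.10 for shared dendritic, -0.27 for macrophage, 0.0374 for neutrophil and 0.47 for Nrf2 and iron genes; equal weight per cell gave -0.17 for shared dendritic, 0.67 for neutrophil and 0.41 for Nrf2 and iron in WT, and in β2AR-/- -0.0770 for shared dendritic (reversed), -0.0132 for neutrophil, -0.21 for cAMP, 0.38 for Nrf2 and iron and -0.22 for G2/M. Resolution 0.3 gave 3 groups.

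Some gene ratios with a main interval clear of 0 turned. In β2AR-/- these were Camp (-0.11 at 3%, -0.0462 thinned, -0.00763 without cells over 1% granule UMIs), Fn1 (0.0914 at 3%, 0.0607 thinned, 0.0642 without Cd74) and F13a1 (0.0867 at 3%). Elane (0.59 thinned, 0.81 without cells over 1% granule UMIs) and Prtn3 (0.91 without those cells) turned too. So did Stfa1 (-0.24 thinned, -0.16 with unit SD) and Pf4 (-0.70 without Cd74). In WT, Adam23 (0.37 thinned) and H2-DMb1 (-0.45 with 5% of each library) turned. The cause was not tested. Under planned settings 1291 values for single named genes stayed within the main spread, 250 moved and 15 reversed. Of the shares, gene counts and list ratios 156 stayed close to the main value, 58 moved and 1 reversed. The spread was the counting interval, or the range over the 4 libraries for ratios to the other eligible cells. A ratio was called reversed only where this spread lay clear of 0, so signs could also change among the rest. The β2AR-/- neutrophil list, at 0.03 and at -0.0132 with equal weight per cell, was counted as moved. The settings on the upper mode, the lower range and all 4 genes were chosen after seeing the data. No paired analysis was possible because the groups consist of 1 library each, for which reason no replicate could be left out. WT+ISO, with 36 cells and 392952 UMIs, limits every WT ratio.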
